A study of Mus musculus with 8 samples.

Results

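The iris pigment epithelium (iris PE) was followed through pharmacologic dilation of the pupil. Nuclei carrying the authors' cell type label for iris PE were taken from the 2 dilated and the 3 untreated libraries, and their unique molecular identifiers (UMIs) were summed per library for every gene. The rule gave 6457 nuclei (2738 dilated and 3719 untreated) of the 25392 nuclei of all cell types in these 5 libraries and of 34357 in the series. The choice of nuclei used the label and the treatment only, so no gene was chosen by its response.

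The iris PE is the pigmented epithelial layer at the back of the iris. Its origin is usually placed at the rim of the optic cup, whereas the study proposes from lineage tracing that neural crest cells give most of its progenitors. It lies against the dilator muscle, is continuous with the ciliary body epithelium (CBE), and has to fold and shorten when the pupil opens. Its cells make melanin with the enzymes Tyr, Tyrp1 and Dct and the transcription factor Mitf. The drops that open the pupil act on receptors of the muscle: phenylephrine is an alpha-adrenergic agonist of the dilator and cyclopentolate a muscarinic antagonist at the sphincter, whereas pilocarpine is a muscarinic agonist that closes the pupil.

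All mice were female and albino, 6 to 8 weeks old, and carried the genotype label WT, so the values below are of transcripts and not of pigment. The dilated group received 5% phenylephrine and 1% cyclopentolate in saline every 1 hour for 6 hours and was kept in the dark. The constricted group (3 libraries) received 5% pilocarpine on the same schedule and was kept in the light, and the untreated group received no drops. Tissue was taken 6.5 hours after the start, 30 minutes after the last drop, and each library pooled 5 or 6 irises. The effects of the drugs, the lighting and the handling cannot be told apart in this design.

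Iris PE UMIs per library ranged from 1196394 to 5770938 over the 8 libraries, from 259 to 1777 nuclei. In order of replicate number, 342, 1663 and 1714 nuclei were untreated, and 1777 and 961 were dilated. Every list of values below keeps this order. Iris PE made up 23.1, 26 and 26.4% of the untreated nuclei and 24.3 and 25.9% of the dilated nuclei, and the mean number of UMIs per iris PE nucleus was 3498, 3023 and 3284 and 3248 and 3039, respectively. The groups overlapped in both measures (exact permutation test, two-sided, p = 1.0 for the share and 0.6 for the UMIs, where 0.2 is the smallest p that 2 against 3 libraries allow). Among nuclei other than those of the ciliary body and CBE, the share was 26.09, 27.39 and 27.36% untreated and 28.54 and 27.54% dilated. By that measure both dilated libraries were above all untreated ones. The mean share of mitochondrial transcripts in iris PE nuclei was 0.0732, 0.0822 and 0.0657% untreated and 0.104 and 0.0833% dilated, higher in both dilated libraries than in any untreated one, and 0.0719, 0.0496 and 0.0961% constricted. Its part in the results was not tested. Untreated replicate 1 and dilated replicate 1 had 63 cell barcodes in common, of which 59 carried the same cell type and 9 were iris PE in both, compared to at most 18 in any other pair of libraries. The counts of called genes are given with and without nuclei of shared barcodes.

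The label was checked against marker genes. The 11 iris PE markers include the transcription factors *Zic1*, *Pax6* and *Mitf* and the pigment genes *Dct* and *Tyr*. Their summed level was 16485, 16745 and 16692 UMIs per 1000000 iris PE UMIs (CPM) in the untreated libraries and 18500.3 and 16725 CPM in the dilated libraries. *Dct* alone gave 7603, 7024 and 6554 CPM untreated and 10979 and 9268 CPM dilated, and *Tyr* fell with dilation (below). The list is not specific to iris PE. Its mean untreated sum was 16641 CPM in iris PE, 28369 CPM in stroma 1, 9966 CPM in dilator muscle and 8708 CPM in ciliary body (CB) nuclei. In iris PE nuclei, the 8 dilator markers together were at 226, 209 and 213 CPM untreated and 179.9 and 169.5 CPM dilated, so the sum was lower in both dilated libraries than in any untreated library. The same markers were also lower with dilation in dilator nuclei, at 4624, 4429 and 4582 CPM untreated and 2967 and 3411 CPM dilated. CBE markers (9 genes) summed to 2463, 2159.8 and 2098 CPM untreated and 2481 and 1778 CPM dilated, CB markers (8 genes) to 751, 646 and 656 CPM untreated and 769.7 and 668 CPM dilated, and stroma 2 markers (7 genes) to 266, 198 and 211 CPM untreated and 255 and 157 CPM dilated, with overlap between the groups in each case. Stroma 1 markers (7 genes) were at 32.6, 26.1 and 34.5 CPM untreated and 19.9 and 16.8 CPM dilated, lower in both dilated libraries. Leukocyte and endothelial markers (7 genes each) were at most 66 and 63.5 CPM in any of the 8 libraries, and the cornea markers *Krt12* and *Aldh3a1* had no UMI. Sphincter markers (8 genes) were at 321, 248 and 252 CPM untreated and 282 and 225 CPM dilated, photoreceptor and lens markers at most 20.1 and 24.2 CPM, and red blood cell markers at 2.51, 4.97 and 1.95 CPM untreated and 11.1 and 8.22 CPM dilated. Single CBE markers did separate the groups. Of the 9, 4 had both dilated libraries above all untreated ones (*Fbln1*, *Slc13a4*, *Slc6a13* and *Gldc*), against 10.9% of all genes tested. Another 2 (*Frmpd4* and *Podxl2*) had both below, against 15.5%. Among the CBE markers, *Gldc*, a mitochondrial enzyme of glycine breakdown, was called, with 40.1, 34.2 and 34.1 CPM untreated and 72.6 and 55.1 CPM dilated (log2 fold change 0.89 ± 0.16, edgeR adjusted p = 0.0287).

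Dilation changed a small set of genes in the iris PE, and most of them rose. Of 14128 genes tested with edgeR's quasi-likelihood test, 64 rose (0.453% of the genes tested) and 20 fell (0.142%). A gene was called when its log2 fold change lay beyond 0.6 in either direction with a Benjamini-Hochberg adjusted p under 0.05. The median log2 fold change over all genes tested was -0.0025. Each count of called list members below stands against these shares of all genes tested, 0.453% risen and 0.142% fallen. Without nuclei whose barcode occurred in more than 1 library, 65 rose and 21 fell, and 82 of the 84 genes were called again. Both dilated libraries were above all 3 untreated libraries for 64 of the 64 risen genes and for 10.9% of all genes tested, and below them for 20 of the 20 fallen genes and for 15.5% of all genes tested. The calls were made on these same libraries, so this separation is a description and no further support. No called gene changed direction under any of the 18 alternatives run. The number of calls did depend on single libraries: 26 genes were called without untreated replicate 2, 15 without untreated replicate 3, 46 without dilated replicate 1, 20 without dilated replicate 2 and 137 without constricted replicate 3. With each library left out in turn and under every other setting, 11 genes were called each time: *Pde10a*, *Pde3b*, *Serpina3n*, *Btg2*, *Jun*, *Slc6a6*, *Optc*, *Ttc23l*, *Anks1b* and the long noncoding RNAs *Gm39075* and *Gm12153*.

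The genes with the largest rise included enzymes that break down cyclic nucleotides, the second messengers that carry signals from many G protein-coupled receptors. *Pde10a* (GRCm38 chr17:8525372-8986648, plus strand), which codes for a phosphodiesterase of both cAMP and cGMP, had 18.4, 14.1 and 15.3 CPM in the untreated libraries and 383 and 296 CPM in the dilated libraries. Its mean level was 21.3-fold higher with dilation (log2 fold change 4.49 ± 0.29 (SE), edgeR adjusted p = 8.53e-06), and the constricted libraries, at 35.8, 33.6 and 12.7 CPM, lay far below both dilated libraries. *Pde3b* (chr7:114415281-114539251, plus strand), a cAMP phosphodiesterase that cGMP inhibits, went from 1.67, 2.19 and 1.6 CPM to 14.4 and 24.3 CPM (log2 fold change 3.37 ± 0.38, edgeR adjusted p = 0.00121). For the cAMP-specific *Pde4b* the levels were 14.2, 8.75 and 6.93 CPM untreated and 30.8 and 44.2 CPM dilated (log2 fold change 2.09 ± 0.28, edgeR adjusted p = 0.0046). *Pde1c*, a calmodulin-dependent enzyme, had 1411, 1292 and 1325 CPM untreated and rose to 2886 and 2228 CPM (log2 fold change 0.97 ± 0.17, edgeR adjusted p = 0.025). Its constricted libraries were at 1724, 1904 and 1313 CPM, and its difference between dilated and constricted was 0.66 ± 0.17 (edgeR adjusted p = 0.138). *Pde10a*, *Pde3b*, *Pde4b* and *Pde1c* were the 4 called members of 18 phosphodiesterase genes tested, where 0.453% of all genes tested rose. The remaining 14 did not pass the test, the list median was 0.05, and the lowest member was *Pde3a* at 8.14 and 6.16 CPM dilated against 14.2, 9.35 and 14.4 CPM untreated (edgeR adjusted p = 0.525). *Pde4b* and *Pde1c* lost the call without 1 or more of untreated replicates 1, 2 and 3 and dilated replicates 1 and 2, left out singly (edgeR adjusted p up to 0.0538 and 0.193, respectively).

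**Figure D1:**
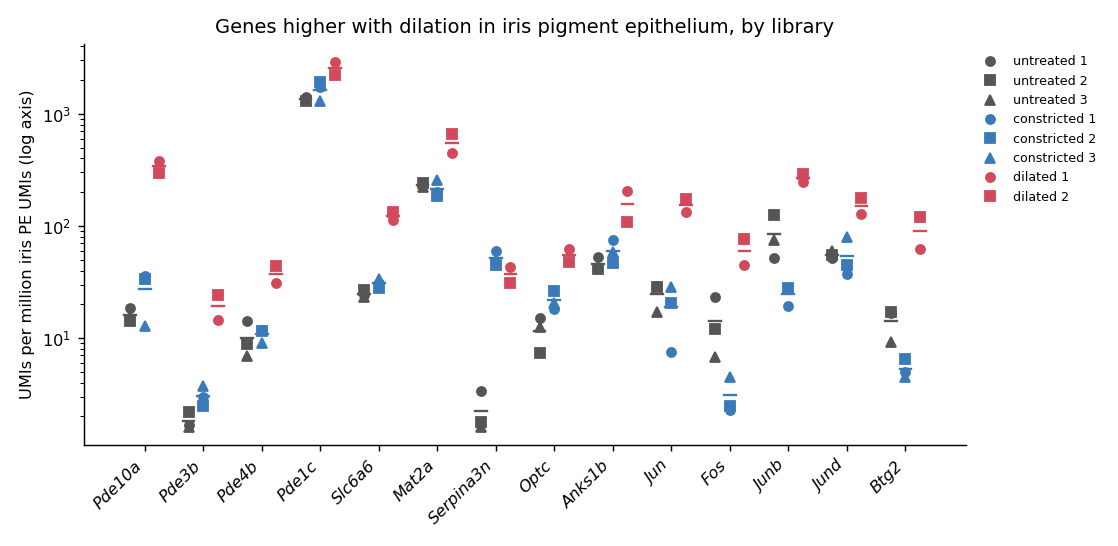
Levels of 14 risen genes in iris PE nuclei (CPM, log axis) in each library, with a bar at the mean of each group. Both dilated libraries are above all untreated libraries for each gene, and *Serpina3n* is the gene for which the constricted libraries (45.1 to 59.8 CPM) are above the dilated ones (31.2 and 42.6 CPM).

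Upstream and downstream of cAMP, 28 genes for adenylyl cyclases, protein kinase A, CREB and their regulators were tested. Of these, 1 rose, where 0.453% of all genes tested rose, and the list median was 0.06. That gene was *Sik1* (chr17:31844250-31855804, minus strand), a kinase that CREB induces and that restrains CREB coactivators, with 35.1, 28.4 and 18.7 CPM untreated and 53.2 and 102 CPM dilated (log2 fold change 1.61 ± 0.29, edgeR adjusted p = 0.0273). Its dilated libraries did not overlap with the untreated ones, and dilated replicate 2 was well above replicate 1. Fitted on the dilated and untreated libraries only, *Sik1* missed the threshold (edgeR adjusted p = 0.0505). *Sik1* lost the call without untreated replicates 2 or 3, dilated replicate 2 or constricted replicate 2, left out singly (edgeR adjusted p up to 0.254).

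The receptors that the drops address gave few UMIs in iris PE nuclei, and none was called. *Adra1a*, the alpha-adrenergic receptor of the dilator, had 17.6, 14.5 and 14 CPM untreated and 23 and 6.51 CPM dilated, and *Adra1b* had 5.02, 7.36 and 5.33 CPM untreated and 7.62 and 4.79 CPM dilated. *Chrm3*, the muscarinic receptor of the sphincter, had 40.1, 29.6 and 36.8 CPM untreated and 50.9 and 31.8 CPM dilated. For *Chrm2* the levels were 7.52, 8.75 and 9.59 CPM untreated and 8.14 and 3.77 CPM dilated, and for *Chrm1* 7.52, 4.77 and 4.44 CPM untreated and 4.85 and 3.42 CPM dilated. In each of these 5 genes the groups overlapped (edgeR adjusted p from 0.879 to 0.998). Further receptor genes were too low to be tested: *Adra2a* was at 0, 0.398 and 1.24 CPM untreated and 2.77 and 1.71 CPM dilated, and *Adra1d*, *Adra2c*, *Adrb3* and *Chrm4* had at most 0.82 CPM in any library. No UMI of *Adra2b* or *Adrb1* was found in the 8 libraries, which allows a level of up to 0.109 CPM by counting error alone.

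The second group of risen genes were immediate early genes, which code for transcription factors and RNA regulators that cells switch on within minutes of a signal without new protein synthesis. AP-1 is a dimer of Jun and Fos family proteins. Of 9 AP-1 genes tested, 4 rose and none fell (0.453 and 0.142% of all genes tested), with a list median of 1.29. *Jun* (chr4:95049034-95052222, minus strand) had 29.3, 28.2 and 17.1 CPM untreated and 133 and 173 CPM dilated (log2 fold change 2.71 ± 0.35, edgeR adjusted p = 0.00384). *Fos* went from 23.4, 12.1 and 6.75 CPM to 44.5 and 76 CPM (log2 fold change 2.36 ± 0.37, edgeR adjusted p = 0.0131), *Junb* from 51.8, 125 and 74.8 to 248 and 290.4 CPM (log2 fold change 1.67 ± 0.28, edgeR adjusted p = 0.0182) and *Jund* from 51.8, 54.9 and 59.9 to 128 and 176 CPM (log2 fold change 1.48 ± 0.27, edgeR adjusted p = 0.0263). In each of the 4 genes both dilated libraries were above every untreated library, and for *Fos* untreated replicate 1 was the closest to them. The members that were not called were *Maff*, *Fosl1*, *Fosl2*, *Mafg* and *Atf3*. *Fos*, *Junb* and *Jund* lost the call without 1 or more of untreated replicates 1, 2 and 3, dilated replicate 2 and constricted replicate 2, left out singly (edgeR adjusted p up to 0.136, 0.127 and 0.229, respectively).

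Of 19 other immediate early genes, 3 rose and the median was 0.40. *Btg2* (chr1:134075170-134079120, minus strand), an antiproliferative gene, had 16.7, 16.9 and 9.24 CPM untreated and 62.4 and 119 CPM dilated (log2 fold change 2.76 ± 0.31 (SE), edgeR adjusted p = 0.00121). *Ier2* had 12.5, 7.36 and 3.91 CPM untreated and 19.8 and 31.2 CPM dilated (log2 fold change 1.92 ± 0.38, edgeR adjusted p = 0.0427), and *Klf10*, a zinc finger repressor that TGF-beta induces, 25.9, 43.2 and 31.4 CPM untreated and 78 and 92.1 CPM dilated (log2 fold change 1.33 ± 0.24, edgeR adjusted p = 0.0279). *Ier2* missed the threshold when only the dilated and untreated libraries were fitted (edgeR adjusted p = 0.058). *Egr1* was not called, with 52.7, 24.1 and 5.33 CPM untreated and 75 and 76.4 CPM dilated. Its lowest and highest untreated libraries lay further apart than those of *Btg2*, *Ier2* or *Klf10*. *Ier2* and *Klf10* lost the call without 1 or more of untreated replicates 1, 2 and 3, dilated replicates 1 and 2 and constricted replicate 2, left out singly (edgeR adjusted p up to 0.343 and 0.213, respectively).

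To show what sequence these genes carry before their starts, the 250 bases upstream of the annotated start were read from RefSeq (GRCm38.p6) for *Btg2* (chr1:134079156-134079405, minus strand), *Fos* (chr12:85473640-85473889, plus strand) and *Junb* (chr8:84978749-84978998, minus strand), which are shown because they hold the core described next. For *Jun* and *Jund* a sequence was matched, and these letters are not in that window. Capitals mark the core TGACG of the cAMP response element, the site that CREB binds, on either strand, and in *Btg2* the full palindrome TGACGTCA. 
Btg2: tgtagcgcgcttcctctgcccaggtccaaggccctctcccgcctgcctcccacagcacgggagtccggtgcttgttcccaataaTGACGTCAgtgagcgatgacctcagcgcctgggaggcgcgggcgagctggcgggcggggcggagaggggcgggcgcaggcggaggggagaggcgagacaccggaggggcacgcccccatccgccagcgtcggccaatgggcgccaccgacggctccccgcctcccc
Fos: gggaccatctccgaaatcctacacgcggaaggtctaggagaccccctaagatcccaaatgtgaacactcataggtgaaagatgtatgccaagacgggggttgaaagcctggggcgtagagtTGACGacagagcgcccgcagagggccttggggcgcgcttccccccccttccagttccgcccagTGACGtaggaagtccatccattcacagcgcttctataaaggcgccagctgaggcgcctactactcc
Junb: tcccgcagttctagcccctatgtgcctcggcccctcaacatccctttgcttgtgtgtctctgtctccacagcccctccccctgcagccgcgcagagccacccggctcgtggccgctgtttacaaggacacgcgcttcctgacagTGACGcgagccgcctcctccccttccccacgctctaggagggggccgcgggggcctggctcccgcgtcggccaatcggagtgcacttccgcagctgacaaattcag

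The full element TGACGTCA was in the upstream 250 bases of 1.77% of 27025 genes and the core TGACG in 19.8%. A sequence was matched for 41 of the 64 risen genes. Of these, 2 (*Btg2* and *Creb5*) had the full element and 15 the core. For the AP-1 site TGANTCA the counts were 3 of 41 risen genes and 7.82% of all genes. The full element contains the core on both strands, so the counts overlap. A match is a description of the letters in this window.

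Single genes of the Ras-ERK pathway also rose, as did *Cebpb* and *Cebpd*, which code for CCAAT/enhancer binding proteins, a family of leucine zipper transcription factors. Of 9 genes listed as ERK feedback and target genes, 2 rose, with a median of 0.67. *Tmem158*, a Ras-induced membrane protein, went from 2.51, 4.38 and 7.11 CPM to 23.4 and 22.3 CPM (log2 fold change 2.14 ± 0.32, edgeR adjusted p = 0.00821), and *Spred2*, an inhibitor of Raf activation, from 36.8, 23.5 and 25.6 to 55.1 and 58.6 CPM (log2 fold change 1.10 ± 0.19, edgeR adjusted p = 0.0241). *Cebpd* had 10.0, 4.58 and 6.4 CPM untreated and 19.4 and 38.4 CPM dilated (log2 fold change 2.21 ± 0.37, edgeR adjusted p = 0.0198), and *Cebpb* 7.52, 4.58 and 6.4 CPM untreated and 15.4 and 28.8 CPM dilated (log2 fold change 1.92 ± 0.33, edgeR adjusted p = 0.0215). For all 4 the groups were separate, and for both *Cebp* genes dilated replicate 2 was well above replicate 1. *Tmem158*, *Spred2*, *Cebpd* and *Cebpb* lost the call without 1 or more of untreated replicates 2 and 3 and dilated replicates 1 and 2, left out singly (edgeR adjusted p up to 0.0691, 0.192, 0.186 and 0.234, respectively).

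*Cebpd* and *Cebpb* also belonged, as its called members, to a list of 20 tested genes, most of which glucocorticoids induce in many tissues and which also holds the receptor genes *Nr3c1* and *Nr3c2*, and its median of 1.41 was the highest of the 24 pathway lists. Among the others, *Fkbp5*, a chaperone partner of the glucocorticoid receptor, had 71, 19.9 and 11.9 CPM untreated and 105 and 394 CPM dilated (log2 fold change 3.23 ± 0.71 (SE), edgeR adjusted p = 0.0674). The constricted libraries had 26.3, 31.2 and 100.3 CPM. Untreated replicate 1 and constricted replicate 3 were thus high for their groups, and dilated replicate 2 was several times dilated replicate 1. *Mt1*, which codes for a metallothionein that binds zinc, had 527, 545 and 424 CPM untreated and 860.0 and 1630.1 CPM dilated (edgeR adjusted p = 0.132). Its neighbor *Mt2* had 76.1, 110.0 and 93.5 CPM untreated and 183 and 381 CPM dilated (edgeR adjusted p = 0.0889), and it was called when only the dilated and untreated libraries were fitted (edgeR adjusted p = 0.0358). *Zbtb16*, a zinc finger repressor, had 113, 23.9 and 21.7 CPM untreated, 100.3 and 247 CPM dilated and 28.9, 47.5 and 105 CPM constricted, the same order of libraries within each group as *Fkbp5*. Of the 20 members, 13 were more than 1.5 times higher in dilated replicate 2 than in replicate 1, against 888 of the 14128 genes tested. With a term for the series of library numbers in the sample names (untreated, constricted and dilated replicate 1 as the first, constricted replicate 2 as the second, the other libraries as the third), 12 of the 20 rose and 0 fell, against 250 risen and 124 fallen of the 14128 genes. With a term for the replicate number instead, 9 rose and 0 fell, against 125 and 53.

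**Figure D2:**
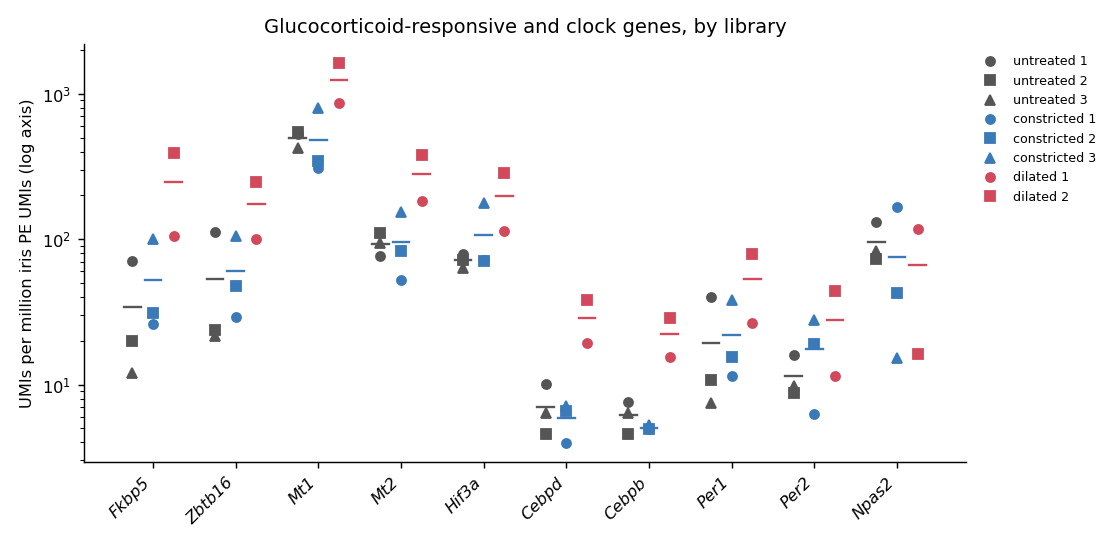
Levels of 10 glucocorticoid-responsive and clock genes in iris PE nuclei (CPM, log axis) by library, with a bar at the group mean. *Fkbp5* ranged from 105 to 394 CPM between the dilated libraries, and *Npas2* from 16.1 to 117 CPM.

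None of 19 circadian clock genes tested was called, and the median was 0.14. Of the 19, 7 were more than 1.5 times higher in dilated replicate 2 than in replicate 1, and some differed widely between libraries of the same group. *Npas2*, an activator of the clock, had 132, 72.8 and 83.2 CPM untreated, 117 and 16.1 CPM dilated and 167, 42.6 and 15.3 CPM constricted. *Per2*, a repressor of the clock, had 15.9, 8.75 and 9.77 CPM untreated, 11.4 and 44.2 CPM dilated and 6.24, 18.9 and 27.7 CPM constricted. *Npas2* was low and *Per2* high in dilated replicate 2 and constricted replicate 3 relative to the other library or libraries of their groups. Times of day were not given in the sources used here. Smallest in adjusted p was *Bhlhe40*, a clock repressor, with 56.8, 92.3 and 78 CPM untreated and 123 and 132 CPM dilated (log2 fold change 0.75 ± 0.20, edgeR adjusted p = 0.146). It was called with the term for library series (edgeR adjusted p = 0.00632) and with that for the replicate number (edgeR adjusted p = 0.0272).

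Transporters of water and of small organic solutes formed the next group. *Slc6a6* (chr6:91684053-91759066, plus strand) codes for the taurine transporter and had 24.2, 26.7 and 23.3 CPM untreated and 113 and 132 CPM dilated (log2 fold change 2.34 ± 0.17 (SE), edgeR adjusted p = 1.61e-05). *Aqp1*, a water channel, went from 74.4, 90.9 and 94.5 CPM to 159 and 157 CPM (log2 fold change 0.89 ± 0.17, edgeR adjusted p = 0.0367), and *Slc38a2*, a transporter of neutral amino acids that hypertonic medium induces, from 382, 385 and 359 to 614 and 700.0 CPM (log2 fold change 0.85 ± 0.17, edgeR adjusted p = 0.0382). The constricted libraries, at 114, 119 and 152 CPM for *Aqp1*, were also above all untreated ones. Its difference between dilated and constricted was 0.33 ± 0.17 (edgeR adjusted p = 0.714). *Slc6a6*, *Aqp1* and *Slc38a2* were the 3 called of 19 osmolyte and cell volume genes tested (0.453% of all genes tested rose), with none fallen and a median of 0.20. *Nfat5*, the transcription factor of the hypertonic response, had 841, 801 and 833 CPM untreated and 726 and 598 CPM dilated (edgeR adjusted p = 0.719). *Slc6a6* is also strongly expressed in CBE nuclei, at 3229 CPM untreated. The share of CB and CBE nuclei was 11.4, 5.02 and 3.54% in the untreated libraries and 14.9 and 5.83% in the dilated ones, and its part in the *Slc6a6* level was not tested. *Aqp1* and *Slc38a2* lost the call without 1 or more of untreated replicates 1, 2 and 3, dilated replicates 1 and 2 and constricted replicate 2, left out singly (edgeR adjusted p up to 0.237 and 0.343, respectively).

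Single members of other pathways also rose. *Mat2a* (chr6:72432799-72439558, minus strand), the enzyme that makes S-adenosylmethionine, had 236, 241 and 224 CPM untreated and 448 and 656 CPM dilated (log2 fold change 1.29 ± 0.19, edgeR adjusted p = 0.00859), and it was the called member of 13 genes of that cycle (median 0.02). *Kcnn2*, a potassium channel opened by calcium, had 103, 54.1 and 43.9 CPM untreated and 212 and 384 CPM dilated (log2 fold change 2.29 ± 0.37, edgeR adjusted p = 0.0147), and was the called member of 24 potassium channel genes (median 0.18). *Plcb1*, a phospholipase C that G proteins activate, went from 119, 124 and 141 CPM to 250.2 and 199.7 CPM (log2 fold change 0.84 ± 0.16, edgeR adjusted p = 0.0357). Its constricted libraries were at 201, 249 and 202 CPM and overlapped with the dilated ones. It was the called member of 6 genes listed under opsins and light (median -0.24). Of 37 genes listed under axon guidance and adhesion (median 0.04), 2 rose and 1 fell: *Vcam1*, an adhesion receptor, rose from 95.3, 116 and 101 CPM to 228 and 214 CPM and *Unc5d*, a netrin receptor, from 25.9, 11.7 and 10.3 to 52.7 and 38.7 CPM (edgeR adjusted p = 0.0182 and 0.0212). *Mat2a*, *Kcnn2*, *Plcb1*, *Vcam1* and *Unc5d* lost the call without 1 or more of untreated replicates 1, 2 and 3 and dilated replicates 1 and 2, left out singly (edgeR adjusted p up to 0.127, 0.12, 0.314, 0.118 and 0.162, respectively).

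The other largest rises were in genes of varied function. *Serpina3n* (chr12:104406729-104414329, plus strand), a secreted serine protease inhibitor of the acute phase, had 3.34, 1.79 and 1.6 CPM untreated and 42.6 and 31.2 CPM dilated (log2 fold change 4.30 ± 0.27 (SE), edgeR adjusted p = 8.53e-06). *Tnfrsf12a*, the receptor of the cytokine TWEAK, had 5.85, 1.99 and 1.42 CPM untreated and 21.5 and 25 CPM dilated (log2 fold change 3.38 ± 0.44, edgeR adjusted p = 0.00394). *Optc* (chr1:133897199-133907999, minus strand), an extracellular proteoglycan of the vitreous, had 15, 7.36 and 12.4 CPM untreated and 61.7 and 47.6 CPM dilated (log2 fold change 2.37 ± 0.25, edgeR adjusted p = 9.88e-04). Its constricted libraries, at 18.1, 26.2 and 20.6 CPM, were above all untreated and below both dilated ones. *Sox8*, a transcription factor, was at 1.67, 0.796 and 1.42 CPM untreated and 10.9 and 10.3 CPM dilated, and *Rspo3*, a secreted enhancer of Wnt signals, at 0.836, 1.59 and 1.07 CPM untreated and 6.58 and 8.22 CPM dilated (edgeR adjusted p = 0.00657 and 0.0357). *Ttc23l* had 8.36, 7.56 and 4.09 CPM untreated and 34.5 and 35.6 CPM dilated (log2 fold change 2.53 ± 0.27, edgeR adjusted p = 9.88e-04), and *Anks1b*, a scaffold protein named here after its values were seen, 52.7, 41.2 and 42.8 CPM untreated and 203 and 109 CPM dilated (log2 fold change 1.84 ± 0.23, edgeR adjusted p = 0.00322). The constricted libraries of *Ttc23l*, at 13.8, 12.3 and 15.7 CPM, were above all untreated and below both dilated ones. The long noncoding RNAs *Gm45671* and *Gm15856* rested on few UMIs, with 6 and 9 in the untreated libraries together and 73 and 63 in the dilated libraries together. *Gm15856* is annotated as antisense, and the counting is not stated to use strand, so its level is uncertain. *Tnfrsf12a*, *Sox8*, *Rspo3*, *Gm45671* and *Gm15856* lost the call without 1 or more of untreated replicates 2 and 3, dilated replicates 1 and 2 and constricted replicate 2, left out singly (edgeR adjusted p up to 0.0525, 0.0725, 0.266, 0.145 and 0.665, respectively).

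Among the genes that fell were members of the pigment pathway. *Tyr* (chr7:87424771-87493512, minus strand) codes for tyrosinase, the rate-limiting enzyme of melanin synthesis. Its levels were 1854, 1915 and 2107 CPM untreated and 837 and 889 CPM dilated, and the dilated mean was 0.441 times the untreated mean (log2 fold change -1.14 ± 0.18 (SE), edgeR adjusted p = 0.0154). *Rab38* (chr7:88430273-88491572, plus strand), a small GTPase that carries tyrosinase to the melanosome, had 676, 742 and 808 CPM untreated and 318 and 196 CPM dilated (log2 fold change -1.49 ± 0.20 (SE), edgeR adjusted p = 0.00407). In both genes the constricted libraries were at or near the untreated ones, at 1826, 2504 and 1870.1 CPM for *Tyr* and 794, 828 and 695 CPM for *Rab38*. *Tyr* and *Rab38* lost the call without 1 or more of untreated replicates 2 and 3 and dilated replicates 1 and 2, left out singly (edgeR adjusted p up to 0.124 and 0.0538, respectively). Both genes also fell in dilator nuclei, with log2 fold changes of -1.95 ± 0.22 for *Tyr* and -1.92 ± 0.17 for *Rab38* (edgeR adjusted p = 1.32e-04 and 3.44e-05). Their falls were thus not particular to the iris PE. The difference (iris PE minus dilator) was 0.84 ± 0.11 for *Tyr* (edgeR adjusted p = 6.96e-06). For *Rab38* it was 0.46 ± 0.12, inside the limit of 0.6. In CBE nuclei the effects were -1.40 and -1.10 and not called (edgeR adjusted p = 0.132 and 0.58). The stroma 1 and melanocyte markers, which were also lower in both dilated libraries, summed to at most 34.5 CPM. The sequence before the start of *Tyr* (RefSeq, GRCm38.p6, chr7:87493513-87493762, minus strand) is shown because it holds the M-box core CATGTG, the element that Mitf binds, printed in capitals.
Tyr: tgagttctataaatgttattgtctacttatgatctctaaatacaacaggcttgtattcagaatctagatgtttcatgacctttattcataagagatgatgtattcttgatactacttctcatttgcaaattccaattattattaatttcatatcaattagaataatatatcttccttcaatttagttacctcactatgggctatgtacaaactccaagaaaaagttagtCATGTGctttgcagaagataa
The letters CATGTG, on either strand, were found before the starts of 13.8% of all genes and of 2 of the 11 fallen genes with a sequence, *Tyr* and *Gm19299*.

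*Tyr* and *Rab38* were the called members of 32 melanin and melanosome genes tested. The median log2 fold change was -0.07, and 6 members had both dilated libraries above all untreated ones (10.9% of all genes tested) and 8 below (15.5% of all genes tested). *Dct*, the next enzyme of the pathway, had 7603, 7024 and 6554 CPM untreated and 10979 and 9268 CPM dilated, a log2 fold change of 0.56 ± 0.17 that did not pass the test (edgeR adjusted p = 0.239). *Tyrp1* had 1025, 1297 and 1376 CPM untreated and 954 and 1053 CPM dilated, and *Mitf* 931, 1087 and 1058 CPM untreated and 795 and 709.9 CPM dilated (edgeR adjusted p = 0.815 and 0.427). *Oca2*, a melanosomal transporter, had 1183, 1114 and 1188 CPM untreated and 1087 and 1644 CPM dilated, with overlap between the groups.

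Among genes of contraction and the actin cytoskeleton, *Mylk*, the kinase that activates smooth muscle and nonmuscle myosin, fell from 2721, 2874 and 2887 CPM to 1579.6 and 1198 CPM (log2 fold change -0.99 ± 0.18 (SE), edgeR adjusted p = 0.0279). Its constricted libraries, at 2679, 2314 and 1848 CPM, were also below all untreated ones. The *Mylk* difference between dilated and constricted was -0.69 ± 0.18 (edgeR adjusted p = 0.137). *Tagln2*, an actin-binding protein, rose from 15, 3.78 and 2.84 CPM to 26.2 and 26.4 CPM (log2 fold change 2.37 ± 0.44, edgeR adjusted p = 0.0316), and *Rai14*, an actin-bundling protein, from 386, 344 and 363 to 667 and 598 CPM (log2 fold change 0.84 ± 0.14, edgeR adjusted p = 0.0182). *Mylk*, *Tagln2* and *Rai14* were the called members of 38 genes tested, whose median was 0.02. For *Rai14* the constricted libraries, at 508, 437 and 401 CPM, were above all untreated ones. Its difference between dilated and constricted was 0.53 ± 0.14 (edgeR adjusted p = 0.146). For *Tagln2* untreated replicate 1 was several times the other untreated libraries, and still below both dilated ones. *Myl9*, a myosin light chain, had 67.7, 75.4 and 75.5 CPM untreated and 36 and 51.7 CPM dilated, and *Tpm1*, a tropomyosin, 308, 340.1 and 384 CPM untreated and 211 and 224 CPM dilated (edgeR adjusted p = 0.174 and 0.235). The level of *Mylk* in untreated dilator nuclei was 8212 CPM, and the dilator marker sum in iris PE nuclei was lower in both dilated libraries as well. That sum fell in dilator nuclei too. As a percent of its level in dilator nuclei, it was 4.88, 4.72 and 4.65% untreated and 6.06 and 4.97% dilated in iris PE nuclei. An estimate took all UMIs of the 8 markers in iris PE nuclei as dilator RNA. With dilator RNA taken off at that share in each library, *Mylk* was at 2338, 2478 and 2496 CPM untreated and 1202 and 965 CPM dilated. *Shroom3*, a regulator of apical constriction in epithelia, fell from 51, 43.8 and 68.8 CPM to 20.8 and 20.5 CPM (log2 fold change -1.38 ± 0.22, edgeR adjusted p = 0.0131). *Mylk*, *Tagln2*, *Rai14* and *Shroom3* lost the call without 1 or more of untreated replicates 2 and 3, dilated replicates 1 and 2 and constricted replicate 2, left out singly (edgeR adjusted p up to 0.278, 0.231, 0.159 and 0.113, respectively).

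**Figure D3:**
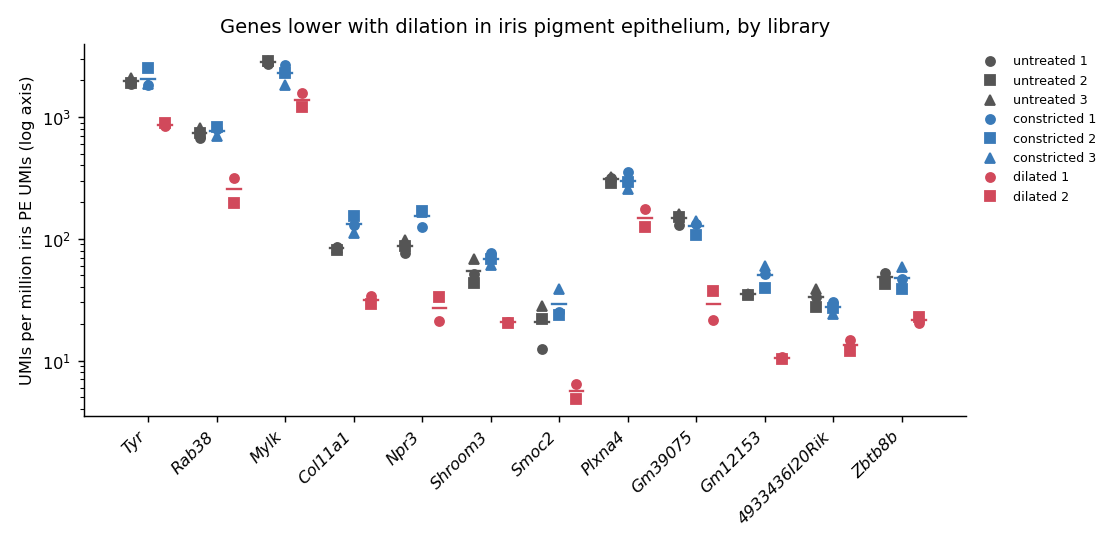
Levels of 12 fallen genes in iris PE nuclei (CPM, log axis) by library, with a bar at the group mean. Both dilated libraries are below all untreated libraries for each gene, for example 837 and 889 CPM against 1854 to 2107 CPM for *Tyr*.

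The other fallen genes had varied functions. *Npr3*, the clearance receptor of natriuretic peptides, had 76.9, 86.5 and 98.4 CPM untreated and 21 and 33.2 CPM dilated (log2 fold change -1.69 ± 0.25, edgeR adjusted p = 0.00657), and its constricted libraries, at 124, 171 and 167 CPM, were above all untreated ones. *Col11a1*, a chain of fibrillar collagen XI, went from 86.1, 81.2 and 84.8 CPM to 34.1 and 29.1 CPM (log2 fold change -1.36 ± 0.18, edgeR adjusted p = 0.00384), and *Smoc2*, a secreted matricellular protein, from 12.5, 21.9 and 28.3 to 6.41 and 4.79 CPM (log2 fold change -1.92 ± 0.35, edgeR adjusted p = 0.0281). *Plxna4*, a semaphorin receptor, had 318, 286 and 322 CPM untreated and 174 and 124 CPM dilated (log2 fold change -1.01 ± 0.17, edgeR adjusted p = 0.0215). *Zbtb8b*, a zinc finger gene, fell from 52.7, 42.6 and 51.4 to 20.3 and 22.9 CPM (edgeR adjusted p = 0.0273). The long noncoding RNA *Gm39075* (chr7:117229607-117278839, plus strand) had 129.6, 151 and 161 CPM untreated and 21.5 and 37.3 CPM dilated (log2 fold change -2.33 ± 0.24 (SE), edgeR adjusted p = 9.88e-04), and *Gm12153* 35.1, 34.8 and 35.4 CPM untreated and 10.7 and 10.3 CPM dilated (log2 fold change -1.70 ± 0.21, edgeR adjusted p = 0.00322). The noncoding RNAs *9230020A06Rik*, *4933436I20Rik* and *Gm19299* fell as well, with log2 fold changes of -3.39, -1.25 and -1.12, and *9230020A06Rik* had no UMI in dilated replicate 2, which allows up to 1.03 CPM by counting error alone. *Npr3*, *Col11a1*, *Smoc2*, *Plxna4*, *Zbtb8b*, *9230020A06Rik*, *4933436I20Rik* and *Gm19299* lost the call without 1 or more of untreated replicates 2 and 3, dilated replicates 1 and 2 and constricted replicate 2, left out singly (edgeR adjusted p up to 0.0783, 0.0538, 0.188, 0.239, 0.285, 0.148, 0.181 and 0.14, respectively).

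No member was called in 11 of the 24 pathway lists. With the term for library series, members rose in some of them (3 circadian, 2 metal ion, 2 unfolded protein, 3 heat shock, 2 noncoding RNA and 1 BMP list genes, and 1 BMP list gene fell). Called in that fit were *Mt2* (edgeR adjusted p = 2.59e-04), the chaperone gene *Hsp90ab1* (0.0218), *Fst* (0.0425) and *Meg3* (0.0422), among others. Nuclear envelope and lamina genes (18 tested) had a median of -0.02, and *Lmna*, the gene of lamins A and C, had 25.9, 24.7 and 24.9 CPM untreated and 40.2 and 30.1 CPM dilated (edgeR adjusted p = 0.38). Among components and targets of the YAP, TAZ and TEAD pathway (23 tested, median -0.17) the smallest adjusted p was that of *Amotl2*, with 44.3, 40.6 and 45.5 CPM untreated and 19.4 and 26.7 CPM dilated (edgeR adjusted p = 0.172). Of the epithelial junction and polarity genes (28 tested, median -0.14), 12 had both dilated libraries below all untreated ones (15.5% of all genes tested), among them *Tjp1*, which codes for the tight junction protein ZO-1, with 352, 357 and 386 CPM untreated and 283 and 255 CPM dilated. Heat shock genes (16 tested) had a median of 0.20, the unfolded protein list (18) 0.06, the metal ion list (16) 0.14, the BMP, TGF-beta and ID list (32) -0.07 and the retinoid list (15) -0.03. For *Fst*, which codes for the activin and BMP antagonist follistatin, 11 UMIs were found in the untreated libraries together and 64 in the dilated ones (log2 fold change 2.85 ± 0.63, edgeR adjusted p = 0.0726), and it was called when only the dilated and untreated libraries were fitted (edgeR adjusted p = 0.035). The noncoding RNA *Meg3* had 28.4, 23.1 and 16.3 CPM untreated and 99.3 and 33.6 CPM dilated, with dilated replicate 1 far above replicate 2. A few genes stand in more than 1 list (*Per1*, *Mt1*, *Cry1*), so the lists are not independent.

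**Figure D4:**
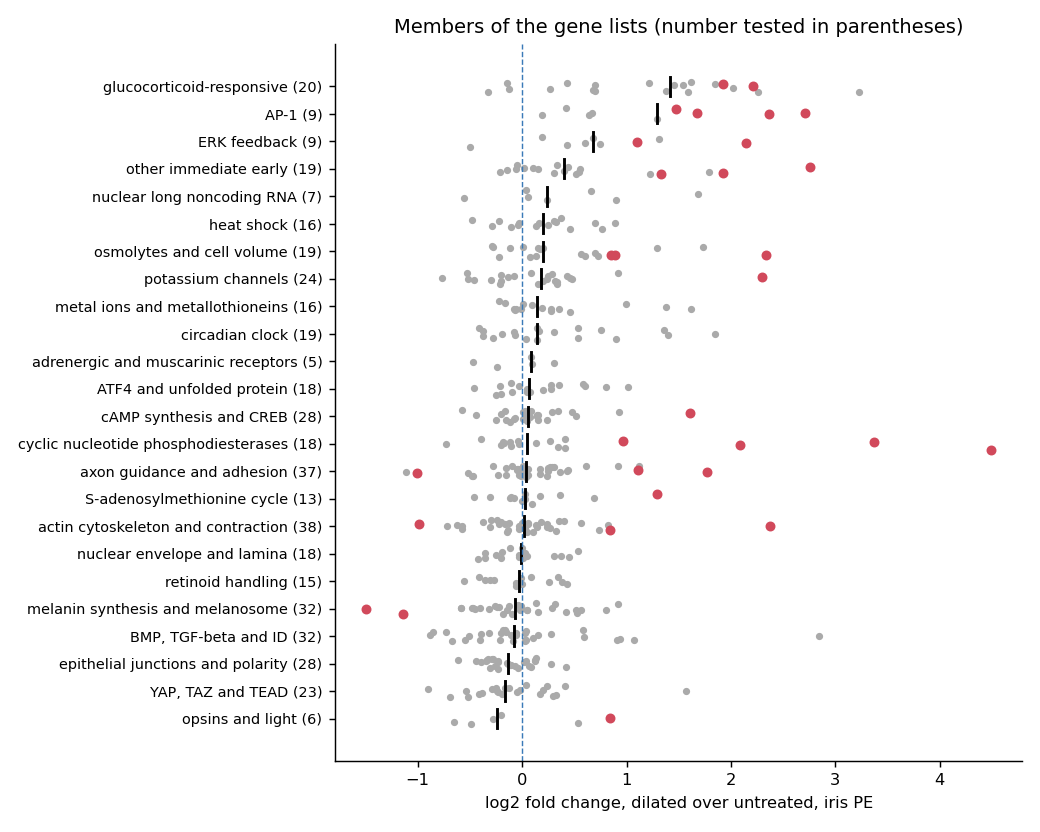
Log2 fold changes of dilated over untreated iris PE for the tested members of the 24 pathway lists (number tested in parentheses), with called genes in red, the list median as a black bar and the median of all genes tested as a dashed line. The glucocorticoid-responsive and AP-1 lists have the highest medians, 1.41 and 1.29.

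The constricted irises are a second group that received drops. They differ from the dilated ones in drug and lighting as well as pupil size, so the comparison cannot assign a change to dilation. Constricted against untreated iris PE gave 1 called gene of 14128 (0.00708%) with edgeR, against 617 at an unadjusted p under 0.05, and DESeq2 gave 5. The called gene was *Serpina3n*, with 59.8, 45.1 and 49.8 CPM constricted (log2 fold change 4.76 ± 0.26, edgeR adjusted p = 1.76e-06), and its difference between dilated and constricted was -0.45 ± 0.20 (edgeR adjusted p = 0.559). Dilated against constricted gave 58 genes higher (0.411%) and 37 lower (0.262%) in the dilated libraries. Of the 64 genes that rose against untreated, 60 also had both dilated libraries above all 3 constricted libraries, against 9.02% of all genes tested, and all 20 fallen genes had both below, against 12% of all genes. The contrasts against untreated and against constricted share the dilated libraries, so they are not independent. Several immediate early genes were lower in constricted than in untreated libraries without passing the test: *Junb* was at 19.4, 27.9 and 27.3 CPM constricted (edgeR adjusted p = 0.155) and *Fos* at 2.3, 2.46 and 4.49 CPM (edgeR adjusted p = 0.807). The dilated to constricted difference of *Fos* was 4.26 ± 0.46 and that of *Btg2* 4.18 ± 0.37 (edgeR adjusted p = 7.14e-04 and 1.32e-04).

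Whether the response of the iris PE differs from that of the dilator muscle, the layer next to it, was tested in a joint fit with a term for each library. The dilation effect differed for 1434 of 16283 genes (8.81%), and for 39 of the 84 genes called in the iris PE. Among the 64 risen genes the effect was larger in the iris PE for 10 (4.56% of all genes in the joint fit) and smaller for 21 (4.24%). The called genes were chosen by their effect in the same iris PE sums that enter the joint fit. Setting their counts against all genes is therefore a description and no test. In dilator nuclei alone, 2054 of 15395 genes were called (13.3%), and 44 of the 62 risen genes that could be tested there rose too. Of the 19 fallen genes that could be tested there, 11 fell too. Among the genes called in the iris PE, *Kcnn2* and *Rspo3* had the largest differences in favor of the iris PE. The log2 fold change of *Kcnn2* was 2.29 ± 0.37 in the iris PE and -1.12 ± 0.19 in dilator muscle (difference 3.46 ± 0.25 (SE), edgeR adjusted p = 1.59e-09). For *Rspo3* the effects were 2.54 ± 0.49 and -0.83 ± 0.57 (difference 3.46 ± 0.60 (SE), edgeR adjusted p = 2.77e-04). *Optc*, *Rhbdf2* (a regulator of shedding of cell surface proteins, 15.9, 22.9 and 25.8 CPM untreated and 50.9 and 41.1 CPM dilated in the iris PE) and *St6gal1* (a sialyltransferase, 66.9, 67.8 and 45.5 CPM untreated and 109 and 169 CPM dilated) followed, with differences of 1.56, 1.34 and 1.12. In the opposite direction, *Spred2*, *Tmem158*, *Fos*, *Ier2* and *Btg2* rose in both cell types and more in dilator muscle, with differences of -2.76, -2.66, -2.40, -2.28 and -2.16 (edgeR adjusted p from 3.97e-08 to 0.0372). *Pde10a* also rose more in dilator muscle, by 6.30 ± 0.26 against 4.49 ± 0.29 in the iris PE (difference -1.83 ± 0.20, edgeR adjusted p = 4.57e-07). With DESeq2 the differences of *Fos* and *Btg2* did not pass the threshold (DESeq2 adjusted p = 0.356 and 0.0642), and without dilated replicate 2 that of *Fos* was -0.71 (edgeR adjusted p = 0.314). *Fos* also missed it without untreated replicates 2 or 3 or constricted replicate 2 (edgeR adjusted p up to 0.314), and without untreated replicate 2 so did *Optc*, *Ier2* and *Btg2* (edgeR adjusted p = 0.0532, 0.0668 and 0.055). After thinning to the smallest library *Optc* missed it too, with a difference of 1.46 (edgeR adjusted p = 0.113).

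**Figure D5:**
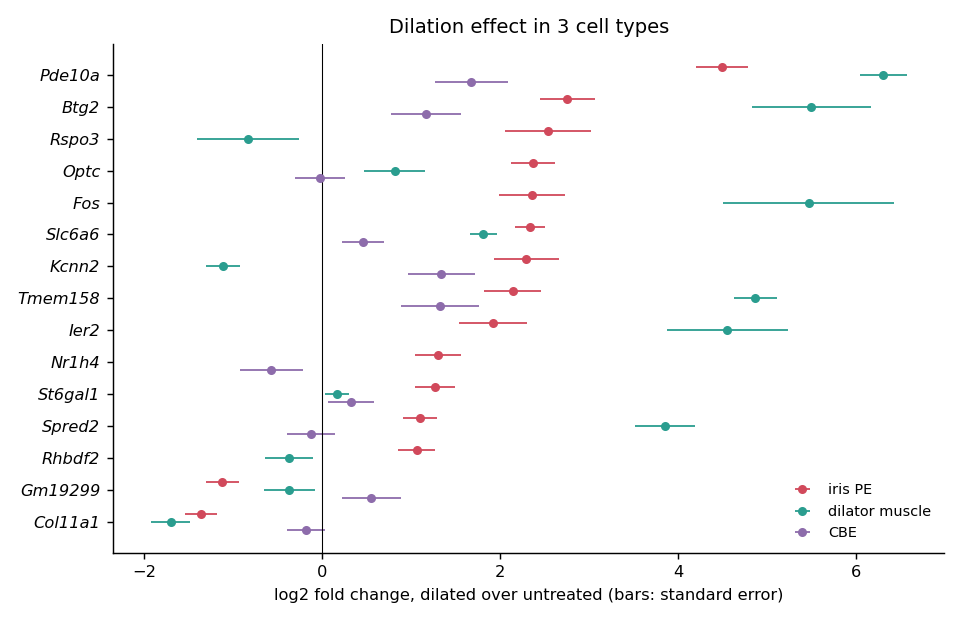
Log2 fold change of dilated over untreated with its standard error in iris PE, dilator muscle and CBE, for 15 genes. They are those genes called in the iris PE whose effect differed most, in each direction, from either of the other cell types. A missing point marks a gene too low to be tested in that cell type, and *Kcnn2* rises in iris PE (2.29) and falls in dilator muscle (-1.12).

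The CBE, continuous with the iris PE, had 1 called gene of 8166 (0.0122%) when tested alone, from far fewer nuclei (1295 in the 8 libraries). The joint fit found a different effect for 35 of 12665 genes (0.276%), and for 13 of the 81 iris PE genes tested in it (11 higher, against 0.174% of all genes, and 2 lower, against 0.103%). Here too the 81 genes had been chosen by their effect in the same iris PE sums, so the shares of all genes are no test of these counts. The effect was higher in the iris PE for *Pde10a* (difference 2.72 ± 0.26 (SE), edgeR adjusted p = 7.44e-11), *Optc* (2.55), *Nr1h4*, the bile acid receptor FXR with 15, 9.55 and 8.0 CPM untreated and 25.1 and 22.6 CPM dilated (2.05), *Slc6a6* (1.84) and *Btg2* (1.57). It was lower for *Gm19299* (-1.70) and *Col11a1* (difference -1.17 ± 0.20 (SE), edgeR adjusted p = 1.73e-04). *Btg2* missed the threshold without untreated replicates 2 or 3 or dilated replicate 1 (edgeR adjusted p up to 0.598), and *Nr1h4* and *Gm19299* without untreated replicate 3 or dilated replicate 1 (up to 0.341 and 0.608). After thinning to the smallest library, *Optc*, *Col11a1* and these 3 genes missed it. *Slc6a6* and *Pde10a* started at a higher level in the CBE, with untreated means of 3229 and 240.0 CPM there against 24.7 and 15.9 CPM in the iris PE. Tested alone, CB nuclei gave 0.0665% of genes called, stroma 1 nuclei 1.17% and stroma 2 nuclei 1.73%, and the genes that had risen in the iris PE rose there in 4 of 36, 7 of 34 and 8 of 56 cases that could be tested. *Pde10a* rose in each of these types, by 2.00, 2.14 and 2.94 (edgeR adjusted p = 0.0205, 1.91e-04 and 0.0112), so its rise was not particular to the iris PE.

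Because most risen genes also rose in dilator nuclei, the amount of dilator RNA in the iris PE nuclei was estimated from the 8 dilator markers. The estimate takes all their UMIs in iris PE nuclei as dilator RNA, and whether iris PE makes some of them was not tested. The markers are not specific to the dilator: untreated sphincter 1 and 2 nuclei had 5114 and 5103 CPM, against 4545 CPM in dilator nuclei. The 8 dilator markers in iris PE nuclei stood at 4.88, 4.72 and 4.65% of their level in dilator nuclei in the untreated libraries and at 6.06 and 4.97% in the dilated ones. The same percentages of the *Pde10a* level in dilator nuclei (1305 and 1338 CPM) would be 79.1 and 66.5 CPM, of the 383 and 296 CPM measured in the dilated iris PE. For *Btg2* they would be 8.49 and 50.9 CPM of 62.4 and 119 CPM, and for *Jun* 12.2 and 17.5 CPM of 133 and 173 CPM. Over the 64 risen genes the median of this part was 5.73% of the dilated iris PE level. It was largest for *Tmem158*, at 11.3 and 10.6 CPM of 23.4 and 22.3 CPM, which would leave 12.1 and 11.7 CPM against at most 7.11 CPM untreated. The part of dilator RNA in the rises was not tested beyond these values. Without the 5.65 to 9.80% of iris PE nuclei that had 2 or more UMIs of 5 dilator markers, 67 genes rose and 25 fell.

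Single nuclei were also compared by detection of a gene. After each nucleus was thinned to 1000 UMIs (8 to 18 nuclei with fewer were left out per library), *Pde10a* was found in 1.5, 1.03 and 1.59% of untreated and 18.1 and 15.1% of dilated iris PE nuclei, and without thinning in 6.43, 4.15 and 4.96% and 34.8 and 28.2%. In leukocyte nuclei thinned alike, the share went from 2.25% (4 of 178 nuclei) to 8.51% (8 of 94), with median depths of 1971 to 2054 and 1843 to 1874 UMIs before thinning, against 3006 to 3581 in iris PE. The untreated iris PE shares were below the untreated leukocyte share and the dilated ones above the dilated leukocyte share. The mean *Pde10a* level in leukocytes went from 19.4 to 160 CPM. Their own transcript and background RNA cannot be told apart here, so the leukocyte share is no measure of background for *Pde10a*. *Tyr* was found in 75.7, 78.7 and 81.3% of untreated and 47.4 and 51.8% of dilated nuclei, and *Rab38* in 37.4, 44.9 and 47.3% and 24.5 and 16.4%, against 6.18% and 1.69% of untreated leukocyte nuclei. In untreated endothelial nuclei thinned alike the shares were higher, at 14.1% for *Tyr* and 7.04% for *Rab38*. In all 3 genes the dilated and untreated iris PE libraries did not overlap in their shares. These genes had been named for separate groups in the same UMIs, so this is a description and no further support.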

How the data were processed

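Single nucleus RNA-seq libraries of mouse iris (10× Genomics Chromium) were used. The authors aligned reads to the mm10 pre-mRNA index with Cell Ranger 3.1.0, clustered nuclei with Seurat, and deposited raw UMI counts of genes by nuclei (whole numbers, not normalized), with a table of each nucleus's cell type, detected genes, UMI counts and percent of mitochondrial transcripts. They kept nuclei with at most 1% mitochondrial transcripts and 500 to 6000 transcripts. In the deposited table these limits match the number of genes detected (500 to 5956) and a mitochondrial share of at most 0.991 percent. The UMIs in the matrices equal the deposited total for 31650 of 34357 nuclei and are lower by at most 13 in the rest. The libraries came from 5 batches and 2 sequencing runs, whose assignment is not given in the sources used here, so no batch term was fitted. The study states that each condition was spread over at least 2 batches and both runs, and it calls the libraries of a condition independent biological replicates.

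UMI counts of iris PE nuclei were summed per library and fitted with edgeR 4.0.16 (R 4.3.3; trimmed mean of M-values, filterByExpr, glmQLFit and glmQLFTest, two-sided) over all 8 libraries, which share 1 estimate of the spread. Standard errors are the log2 fold change over the square root of F. Levels are UMIs per 1000000 summed UMIs. Differences of the dilation effect between cell types came from joint fits with a term for each library. The fit was tested on simulated data. Alternatives were RLE normalization, DESeq2 1.42.0, no filter on low counts, fewer groups in the fit, a replicate block, a block for the series of library numbers, removal of Scrublet doublets (score above 0.25, 352 nuclei, 27 of them iris PE), of nuclei with dilator marker UMIs and of shared barcodes (the last chosen after seeing the data), thinning, and each library left out. The dilator RNA estimate was also chosen after seeing the data. Doublets were kept in the reported values. The score limit was set after seeing the data, because Scrublet's automatic limit varied between repeated runs; with the automatic limit *Nr1h4* had narrowly missed the threshold.

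The members and gene lists were chosen with earlier results of these data known. CB and CBE markers came from the study, which chose them on these libraries. Named genes were the 15 largest rises and 12 largest falls among called genes with separate groups, the called member or members of each pathway list or else the member with the smallest p, the adrenergic and muscarinic receptor genes, and the 5 largest differences in each direction from dilator muscle and CBE among called genes. Other genes are named as examples chosen after their values were seen. A result that the rule names is not reported here. Gene positions are from GENCODE vM21 (GRCm38), which held 22498 of the 22873 gene names. Upstream sequences are from RefSeq (GRCm38.p6).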

Additional observations from a re-analysis of the deposited data

Results flagged for a closer look

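Results with a different dilation effect in different cell types by a joint edgeR fit were marked for a closer look. Between iris PE and dilator muscle, the difference (iris PE minus dilator, log2) was 3.46 for *Kcnn2*, 3.46 for *Rspo3*, 1.56 for *Optc*, 1.34 for *Rhbdf2* and 1.12 for *St6gal1*. It was -2.76 for *Spred2*, -2.66 for *Tmem158*, -2.40 for *Fos*, -2.28 for *Ier2* and -2.16 for *Btg2*. Between iris PE and CBE it was 2.72 for *Pde10a*, 2.55 for *Optc*, 2.05 for *Nr1h4*, 1.84 for *Slc6a6*, 1.57 for *Btg2*, -1.70 for *Gm19299* and -1.17 for *Col11a1*. *Kcnn2* is the 1 risen gene of the iris PE that fell in dilator nuclei. *Nr1h4* in the iris PE missed the threshold without nuclei of shared barcodes (edgeR adjusted p = 0.0524).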

How the results depend on the processing

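Directions were kept by all 84 called genes under every alternative, while the counts moved. Genes called higher and lower with dilation, 64 and 20 as reported, were 110 and 49 with DESeq2, 180 and 75 without a filter on low counts, 33 and 8 after thinning to the smallest library, and 252 and 124 with the block for library series. Nothing states that libraries of like number or like series form pairs. Deviations from the group means did not correlate in every pair of like number, whereas all 9 pairs of like series correlated (0.17 to 0.45, against -0.45 to 0.04 for pairs of different series and group). Deviations within a group offset each other by construction, and the 2 dilated libraries mirror each other. The ranges for like and different series are therefore not independent. With the replicate block 125 rose and 53 fell, 6 genes differed between constricted and untreated, and 145 between dilated and constricted. With the dilated and untreated libraries alone, 38 genes fell. With 1 library left out, 11 to 103 genes rose and 4 to 34 fell. Constricted against untreated (1 gene as reported) gave 5 genes with DESeq2, 12 without the filter, 3 with the series block, 2 without Scrublet doublets, 2 without nuclei with dilator marker UMIs, 2 after thinning, and 1 to 2 with 1 library left out. Dilated against constricted (95) gave 163 with DESeq2, 247 without the filter, 221 with the series block, 63 with these groups alone and 22 to 123 with 1 library left out. The difference from dilator muscle (1434) gave 757 with DESeq2, 743 after thinning and 1062 to 1433 with 1 library left out. The difference from CBE (35) gave 10, 8 and 16 to 48, respectively. The joint fits hold a term for each library and took no further block. The share of iris PE nuclei (dilated minus untreated, -0.076 percentage points) was 1.09 points among nuclei other than CB and CBE, 0.34 without untreated replicate 2, 0.53 without untreated replicate 3 and 0.75 without dilated replicate 1, a range of -1.10 to 0.75 with 1 library left out. The UMIs per nucleus differed by -125 (-248 to -10.3 with 1 library left out). With 1 dilated library left, that library is assumed to vary like the other groups. Of the single-gene results, RLE normalization kept 83, DESeq2 kept 76 and ended 3 calls, thinning kept 52 and ended 23, and the fit of dilated and untreated libraries alone kept 61, ended 3 and added 2. The cause of these shifts was not tested. Smallest in depth was untreated replicate 1, where 1 UMI equals 0.836 CPM, so genes of a few CPM rest on few UMIs.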

Other observations

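Further called genes are given here, chosen after their values were seen. *Plat*, tissue plasminogen activator, had 68.5, 28 and 32.5 CPM untreated and 142 and 122 CPM dilated (edgeR adjusted p = 0.00657). *Vim*, the intermediate filament vimentin, had 81.9, 60.1 and 64.5 CPM untreated and 139 and 147 CPM dilated, and *Osmr*, the oncostatin M receptor, 11.7, 8.95 and 7.46 CPM untreated and 22.9 and 18.5 CPM dilated (edgeR adjusted p = 0.0247 and 0.0397). *Gria3*, a glutamate receptor subunit, went from 59.3, 54.9 and 61.3 to 144 and 121 CPM, and *Prkca*, protein kinase C alpha, from 99.5, 109 and 106 to 165 and 171 CPM (edgeR adjusted p = 0.00657 and 0.0427). The constricted libraries, at 86.1, 114 and 80.4 CPM for *Gria3* and 139.9, 145 and 158 CPM for *Prkca*, lay above all untreated ones.

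Neighboring and overlapping pairs were called together. *Abcc8*, the sulfonylurea receptor, had 42.6, 58.1 and 51.7 CPM untreated and 99.6 and 137 CPM dilated, and *Gm45486*, annotated as antisense and lying within *Abcc8*, 8.36, 18.7 and 15.8 CPM untreated and 45.9 and 54.5 CPM dilated. *Tshz2*, a zinc finger gene, had 103, 108 and 117 CPM untreated and 174 and 196 CPM dilated, and the overlapping noncoding *Gm26883* had 90.3, 95.3 and 106 CPM untreated and 170.3 and 174 CPM dilated. Since the counting is not stated to use strand, the members of each pair cannot be told apart with certainty.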
